A study of Sus scrofa with 24 samples.

Results

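The genes of 9 enzymes that remove superoxide and peroxide were followed in the subcutaneous dorsal fat of Iberian piglets. These were the superoxide dismutases SOD1, SOD2 and SOD3, the catalase gene CAT, and the glutathione peroxidases GPX1, GPX3, GPX4, GPX7 and GPX8. They were chosen by name among the 25880 Ensembl identifiers of the count table, and all 9 were found. GPX1 was named by the identifier that the study pairs with that symbol (ENSSSCG00000033727), and the others by the reference table.

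RNA was sequenced from 24 male piglets, 6 per maternal diet and 1 per litter, of 33 days of age and 5 days after weaning. The sows ate the experimental diets from day 85 of gestation to day 28 of lactation. Vitamin E was added to the feed as α-tocopheryl acetate (all-rac), at 30 mg/kg for control sows (C) and at 100 mg/kg for VE sows. HT sows received 30 mg/kg with 1.5 mg/kg of hydroxytyrosol, a phenol of the olive, and VEHT sows 100 mg/kg with 1.5 mg/kg of hydroxytyrosol. All piglets thus came from sows given vitamin E, no group was without it, and the supplements reached the piglets only through the sow. Each library held 36614639 to 61919211 gene counts (median 47564362). The 9 markers of adipocytes were all above 0 in every library, with a sum of 2284 to 28009 CPM, counts scaled to the same total of gene counts in every library.

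Superoxide dismutases turn superoxide into hydrogen peroxide, and catalase and the glutathione peroxidases then reduce the peroxide, the latter with electrons from glutathione or from protein thiols. In fat these enzymes work beside vitamin E, which stops the chain of lipid peroxidation in membranes, and GPX4 is the enzyme that reduces lipid peroxides inside the membrane. The secreted enzyme GPX3 is made in fat as well as in the kidney, and is released into plasma.

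The 5 peroxidases differ at the active site, and the bases around it are shown because they separate the 3 selenium-dependent members from the others. The sequences were read from RefSeq on Sscrofa11.1, 5′ to 3′ on the coding strand, and capitals mark the codon of the active-site residue.
GPX1: gtagcgtcgctcTGAggcacaacggtg
GPX3: gtggccagctacTGAggcctgacgggc
GPX4: gtggcctctcaaTGAggcaagacggag
GPX7: gtggctagcgagTGTggcttcacagac
GPX8: gtggctagtgacTGCcaactcacagac
They lie at chr13:31917168-31917194 (minus strand), chr16:71984086-71984112 (minus), chr2:77322621-77322647 (minus), chr6:159593763-159593789 (minus) and chr16:34337169-34337195 (plus), all in coding exons. In GPX1, GPX3 and GPX4 the codon is TGA, elsewhere a stop and here read as selenocysteine, and each of these coding sequences held 1 such codon before its end. GPX7 and GPX8 carry a cysteine codon at the same place and held 0. Both are proteins of the endoplasmic reticulum, where they use peroxide to oxidise protein disulfide isomerases.

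Compared per kilobase of the longest RefSeq transcript, GPX3 had the highest level of the 9 genes, with 2213 ± 1124 CPM per kb (SD, n = 24). It was 21st among 20221 genes with a count when ranked by mean CPM. SOD2, the manganese enzyme of mitochondria, followed with 517 ± 282 CPM per kb, and then GPX1, the soluble peroxidase of cytosol and mitochondria, with 411 ± 401. GPX4 (371 ± 108), CAT (322 ± 120.6) and SOD1 (320 ± 107), the copper and zinc enzyme of the cytosol, had means within 1 SD of each other. The extracellular SOD3 (58.0 ± 29.3), GPX8 (34.4 ± 11.4) and GPX7 (25.5 ± 11.4) were the lowest. GPX3 made up a median of 53.9% of the summed level of the 9 genes, from 10.4% to 67.6% per library.

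**Figure D1:**
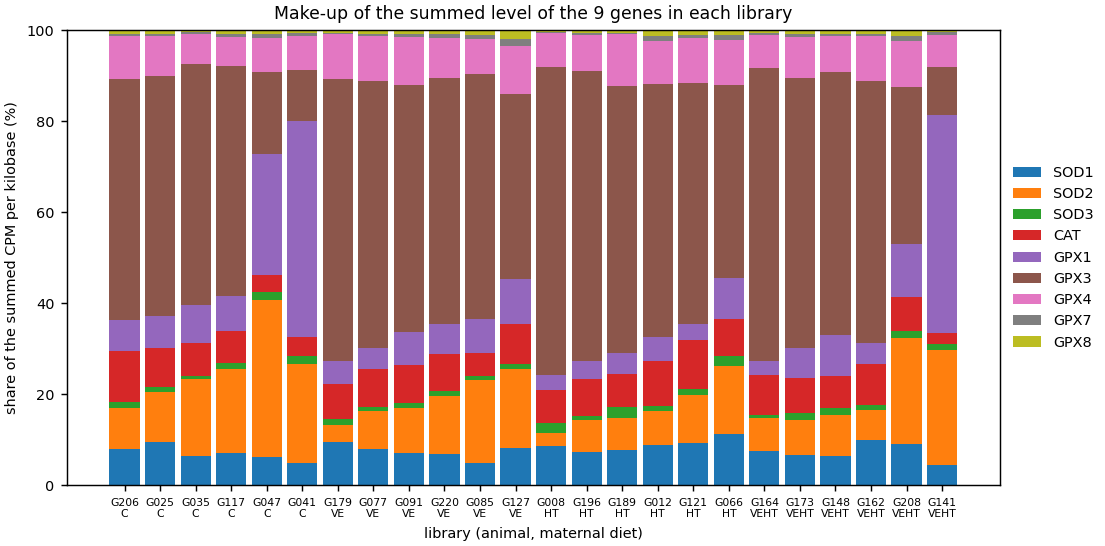
Make-up of the summed level of the 9 genes, in percent of the summed CPM per kilobase (vertical axis), in each of the 24 libraries (horizontal axis, animal and maternal diet). GPX3 holds the greatest share in most bars, but in G041 and G047 of C and G141 of VEHT it falls to between 10.4% and 18.01%, and GPX1 and SOD2 take its place.

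Spread between piglets was wide, and widest for GPX1. Its level ran from 66.2 to 1426 CPM, a 21.5-fold range, against 2.58-fold for GPX4, which varied least. GPX3 had a 14.9-fold range, and the other 6 genes ranges of 3.54-fold to 6.70-fold.

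Animals G041 and G047 (C) and G141 (VEHT) stood apart, and every comparison that includes C or VEHT rests partly on them. Their 12 macrophage markers summed to 10219 to 13141 CPM against 277 to 2656 in the other 21 libraries, and their 9 adipocyte markers to 2284 to 3000 against 5631 to 28009. Macrophages were not the only list to separate them. The markers measured of neutrophils summed to 315 to 445 CPM against 2.07 to 74.3, those of T cells to 232 to 331 against 3.46 to 96.1 and those of plasma cells to 802 to 1223 against 155 to 333. Endothelial markers (303 to 438 against 629 to 2425) and red blood cell markers (62.2 to 140.6 against 199.6 to 977) were lower in the 3. GPX1 was at 650 to 1426 CPM in these 3 and at 66.2 to 452 in the other 21, without overlap. CAT (209 to 291 CPM against 442 to 1249), GPX3 (522 to 862 against 1337 to 7748) and SOD1 (91.2 to 120 against 134 to 398) were lower in all 3 than in any other library. The share of all genes that separate these 3 libraries in this way was not counted, so these genes cannot be called unusual in it. GPX1 thus took 26.6% to 47.9% of the summed level per kilobase in the 3 libraries and 3.06% to 11.5% in the other 21. In bulk tissue, fewer cells of a type and less RNA per cell cannot be told apart.

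**Figure D2:**
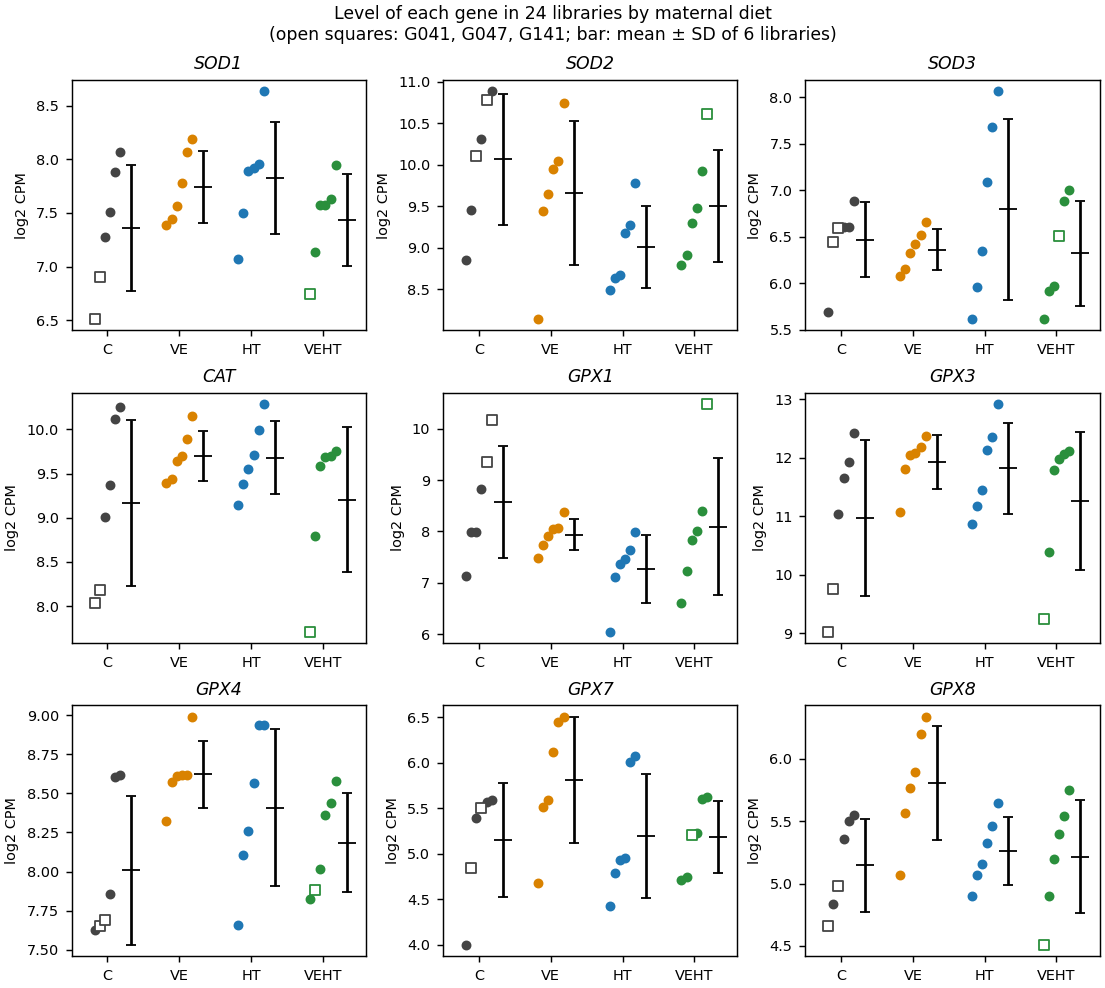
Level of each gene in log2 CPM (vertical axes) by maternal diet (horizontal axes), 1 point per piglet, with the mean ± SD of 6 beside the points. Open squares mark G041, G047 and G141, which hold the 3 highest values of GPX1 and the 3 lowest of CAT, GPX3 and SOD1; the points of every pair of diets overlap in every panel.

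The 9 genes fell into sets that varied together across the 24 libraries, given here as Spearman's rho without a test because the libraries share their cell make-up and their totals. SOD1, CAT, GPX3 and GPX4 ranked the libraries much alike, with rho of 0.792 to 0.857 between any pair of them, and 0.697 to 0.827 in the 21 libraries without G041, G047 and G141. SOD2 and GPX1 were alike (0.849, and 0.808 in the 21), as were GPX7 and GPX8 (0.786 and 0.836). These pairs were less separate in the 21, where SOD2 and GPX1 had rho of 0.601 to 0.695 with GPX7 and GPX8. Over the 24 libraries these values were 0.145 to 0.549. SOD3 had no rho above 0.483 with any other member over the 24 libraries, but in the 21 it had 0.608 with SOD1, 0.591 with GPX4 and 0.527 with GPX3.

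**Figure D3:**
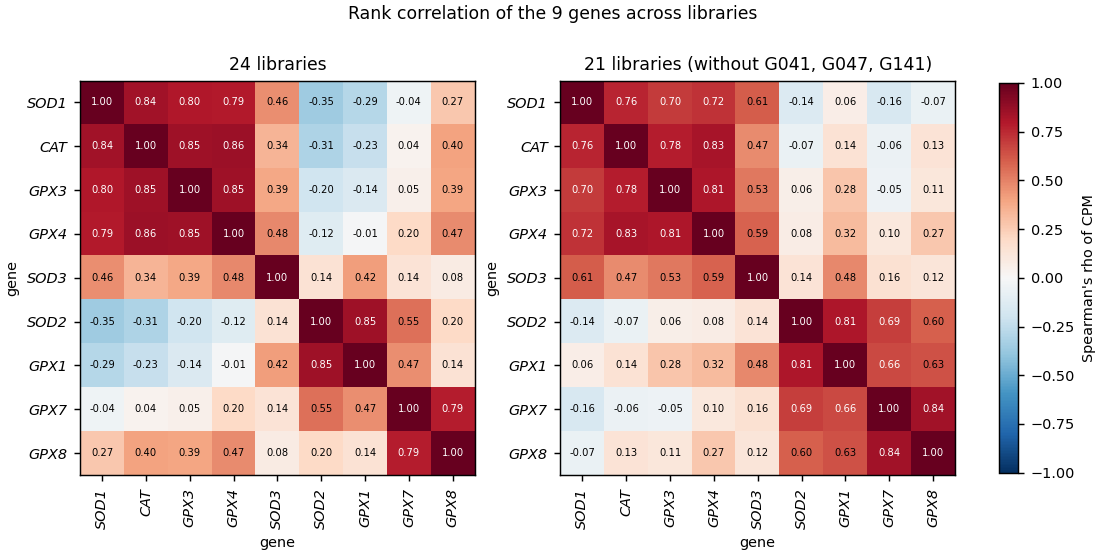
Spearman's rho of CPM for each pair of the 9 genes (both axes), over 24 libraries on the left and over the 21 without G041, G047 and G141 on the right, on a scale from blue (-1) to red (1). SOD1, CAT, GPX3 and GPX4 form 1 block (0.792 to 0.857 on the left), and the pairs of SOD2 with GPX1 (0.849) and of GPX7 with GPX8 (0.786) form the others. On the right SOD2 and GPX1 also rank with GPX7 and GPX8 (0.601 to 0.695).

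Within these 21 libraries the level of each gene was set against the summed markers of adipocytes, of macrophages and of stroma. The libraries share their cell make-up and their totals here too, which the permutation p values do not allow for. The share of all genes that follow these sums as closely was not counted. The p values here and in the next paragraph thus cannot set a gene apart from others, and r and rho are read as descriptions. CAT followed the summed adipocyte markers with Pearson's r = 0.905 and rho = 0.904 on the log2 scale (permutation p = 1e-05 for each, the smallest that 100000 permutations can give, adjusted p = 5.4e-05 and 6.75e-05 over 27 relations). GPX3 (r = 0.881, rho = 0.857), GPX4 (0.840 and 0.838) and SOD1 (0.718 and 0.652) did so too, with adjusted permutation p of 0.0058 or less. Without the 2 libraries farthest from the median of the marker sum, r was 0.878 for CAT, 0.792 for GPX3, 0.788 for GPX4 and 0.563 for SOD1. These 4 genes are expressed by adipocytes among other cells.

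GPX7 and GPX8 followed the sum of the 6 stromal markers, which is made up mostly of the collagen genes COL3A1 and COL1A1. Their medians over the 24 libraries were 8870 and 7240 CPM, and those of the other markers ran from 28.9 (DPP4) to 1438 (DCN). GPX7 had r = 0.959 and rho = 0.932 (permutation p = 1e-05 for each, adjusted p = 5.4e-05 and 6.75e-05), and r = 0.941 without the 2 farthest libraries. GPX8 had r = 0.830 and rho = 0.853 at the same p, and r = 0.784 without them. SOD2 followed the macrophage markers with r = 0.673 and rho = 0.606 (adjusted permutation p = 0.00332 and 0.0135) and the stromal markers with r = 0.622 and rho = 0.678 (0.00925 and 0.00504). GPX1 did so with r = 0.515 and rho = 0.521 for macrophages (0.042 and 0.0459) and r = 0.601 and rho = 0.669 for stroma (0.0123 and 0.00509). Without the 2 farthest libraries r for macrophages and stroma was 0.637 and 0.596 for SOD2, and 0.627 and 0.488 for GPX1. SOD3 was nearest to adipocytes, with r = 0.466 and rho = 0.458 (adjusted permutation p = 0.0678 and 0.0865), and r = 0.328 without the 2 farthest libraries.

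**Figure D4:**
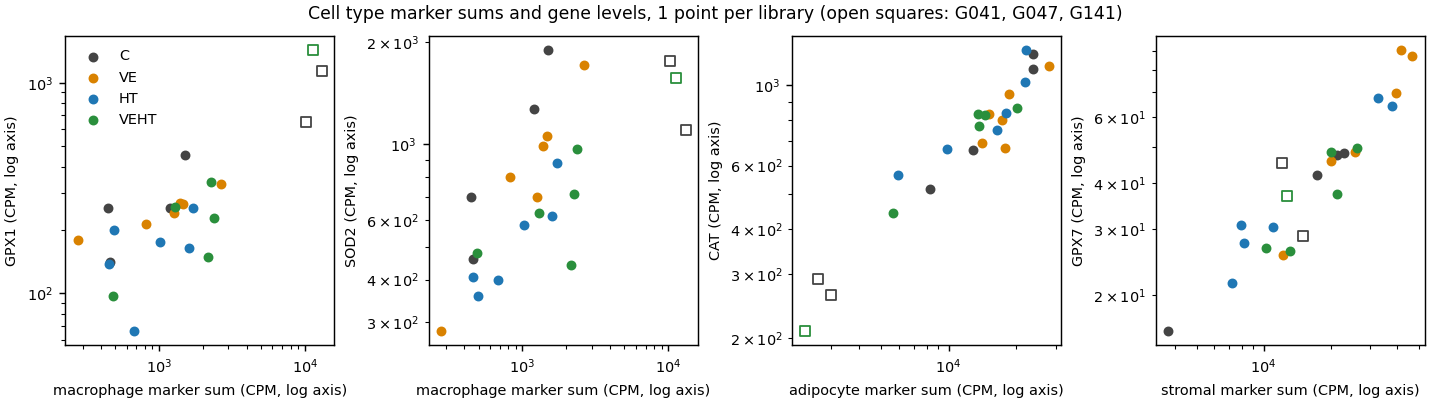
Level of GPX1, SOD2, CAT and GPX7 in CPM (vertical log axes) against the summed CPM of macrophage, adipocyte or stromal markers (horizontal log axes), 1 point per library coloured by maternal diet. CAT rises with the adipocyte sum (r = 0.905 in 21 libraries) and GPX7 with the stromal sum (r = 0.959), while the open squares of G041, G047 and G141 lie apart at macrophage sums of 10219 CPM and more.

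The genes most like each member in rank, among 11499 named genes with a mean of 1 CPM or more, are given as a description. For GPX7 the nearest was COL5A1, a fibrillar collagen (rho = 0.949 over 24 libraries), and for GPX8 SLC2A10, a sugar transporter (0.944), and ITGAV, an integrin (0.930). For CAT these were ORMDL3 (0.970) and PPP1R1B (0.963), for GPX3 the adenosine receptor ADORA1 (0.924), and for GPX4 APOE (0.936), an apolipoprotein. GPX1 was nearest to RHOA (0.928), a small GTPase that also stood after GFPT2 (0.912) and YKT6 (0.906) for SOD2 (0.900). RHOA and GPX1 are neighbours on chromosome 13, 1147 bases apart on the same strand. SOD1 was nearest to CHMP3 (0.939), and SOD3 to NIBAN2 (0.836).

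The study asked how each supplement and the pair of them changed the piglets' fat, and 6 pairs of diets and a factorial model were compared. A gene was called at a q (Benjamini-Hochberg adjusted p over all genes tested) of 0.10 or less and a fold change of 1.5 or more, and for the interaction at the q alone. All 9 genes passed the filter on low counts. The edgeR quasi-likelihood test called 0 of the 9 in each of the 6 pairs, as it did 0% of all genes in each, 0 of 9 for the main effects of vitamin E and of hydroxytyrosol, again with 0% of all genes, and 0 of 9 for the interaction, against 3.95% of 17602 genes. In none of the pairs did the 6 piglets of one diet lie wholly above or below those of the other for any of the 9 genes. Of all genes, 0.456% did so where C was set against VE, 0.223% where against HT and 0.102% where against VEHT. The shares were 0.171% for VE vs VEHT, 0.356% for VE vs HT and 0.12% for HT vs VEHT. The differences given next for GPX1, SOD2, GPX8, GPX7 and GPX4 had an unadjusted p under 0.05 with every library of the comparison in the fit.

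**Figure D5:**
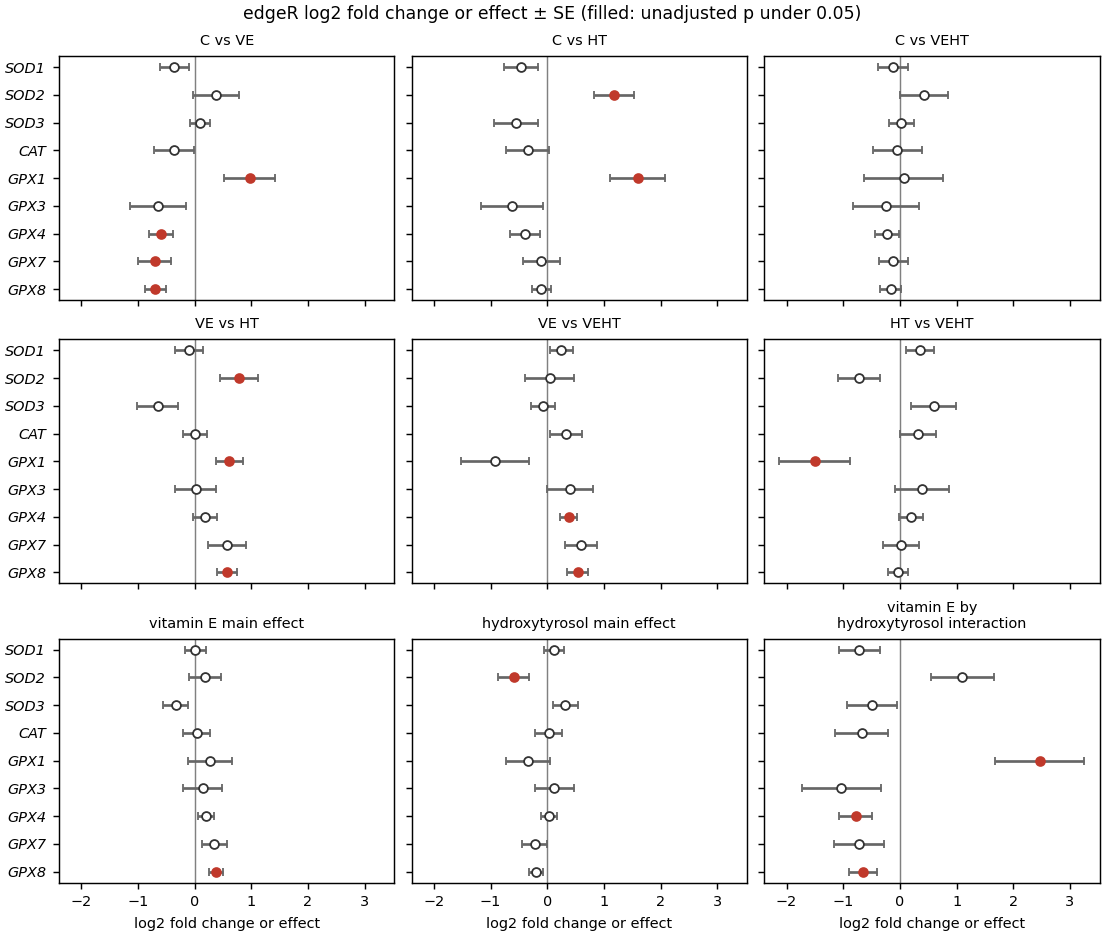
Log2 fold change of the first diet over the second, or factorial effect, with its SE (horizontal axes) for each of the 9 genes (vertical axes) in the 9 comparisons, from edgeR with 6 libraries per diet. Filled points have an unadjusted p under 0.05 (GPX1 in 5 panels, from -1.50 to 2.46), and no gene passed at a q of 0.10.

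GPX1 showed the widest differences between diets. In C its level was 140 to 1142 CPM (median 353), in VE 180 to 332 (253), in HT 66.2 to 253 (170) and in VEHT 97.4 to 1426 (242). The highest values were those of G041 (1142) and G047 (650) in C and of G141 (1426) in VEHT, and the remaining piglets of all 4 diets overlapped. By mean the order was C (482 ± 370 CPM, SD, n = 6), VEHT (416 ± 502), VE (250 ± 52.3) and HT (166 ± 62.5). Without the 3 animals the means were 275 ± 130 in C (n = 4), 250 in VE, 214 ± 94.0 in VEHT (n = 5) and 166 in HT. In each diet the piglet with the lowest GPX1 had the highest sum of skeletal muscle markers. These were G025 in C (140 CPM, muscle sum 20728), G179 in VE (180, 18174), G121 in HT (66.2, 32535) and G164 in VEHT (97.4, 34632). G208 of VEHT, with a muscle sum of 33604 CPM, was at 228 CPM of GPX1. The part of muscle was not tested.

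The log2 fold change of GPX1 was 1.59 ± 0.49 (SE) in C vs HT (q = 0.335, edgeR) and 0.97 ± 0.44 in C vs VE (q = 0.410, edgeR). It was -1.50 ± 0.62 in HT vs VEHT (q = 0.598, edgeR) and 0.61 ± 0.24 in VE vs HT (q = 0.502, edgeR). None of these passed the threshold. The interaction was 2.46 ± 0.79 (q = 0.114, edgeR), positive where the vitamin E difference was higher in the presence of hydroxytyrosol than without it, and it did not pass either. Without G041, G047 and G141 the interaction was 0.47 ± 0.43 (q = 0.995, edgeR), the C vs VE difference 0.08 ± 0.26, the HT vs VEHT difference -0.40 ± 0.32 and the C vs HT difference 0.70 ± 0.35 (q = 1.000, edgeR), and none of these 4 had an unadjusted p under 0.05. The VE vs HT difference involves none of these 3 animals.

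SOD2 was highest in C and lowest in HT. It was at 461 to 1891 CPM in C (median 1183), 282 to 1708 in VE (895), 443 to 1567 in VEHT (671) and 359 to 880 in HT (493). All HT piglets but G066 (880) were at 617 CPM or less. The log2 fold change was 1.18 ± 0.35 in C vs HT (q = 0.335, edgeR), 0.78 ± 0.33 in VE vs HT (q = 0.508, edgeR) and -0.60 ± 0.28 for the hydroxytyrosol main effect (q = 0.787, edgeR). Without G041, G047 and G141 the C vs HT difference was 0.97 ± 0.37 (q = 1.000, edgeR) and the main effect -0.68 ± 0.27 (q = 0.575, edgeR). The 12 macrophage markers were likewise lowest in HT by median, with a median sum of 1347 CPM in C (447 to 13141), 1326 in VE (277 to 2656), 2218 in VEHT (488 to 11361) and 852 in HT (458 to 1726). The sum of the 6 stromal markers, with which SOD2 and GPX1 also rank, was lowest in HT by median only. This median was 9589 CPM against 16279 in C, 32585 in VE and 16554 in VEHT. In HT, G012 (37842) and G066 (32582) were far above the rest, which were at 10980 CPM or less. Taken singly in C vs HT, 2 of the 6 were higher in C at an unadjusted p under 0.05 (edgeR) and 0 lower. The median log2 fold change of the 6 was -0.05 (0.03 over all genes). The part of either list in the difference was not tested. SOD2 was also lowest in the piglet with the highest muscle sum in C (G025) and VE (G179), but not in HT and VEHT. The part of muscle was not tested.

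GPX8 and GPX7 were highest in VE. GPX8 was at 33.5 to 80.8 CPM in VE (median 57.0) and 25.3 to 46.9 in C (36.2), with 29.9 to 50.1 in HT (37.8) and 22.8 to 53.8 in VEHT (39.4). VE piglets other than G091 and G179 lay above every piglet of C and HT, and the lowest, G179 at 33.5, lay among them. Its log2 fold change was -0.69 ± 0.19 in C vs VE (q = 0.310, edgeR). It was 0.56 ± 0.18 in the comparison of VE with HT (q = 0.490, edgeR) and 0.53 ± 0.19 in that of VE with VEHT (q = 0.458, edgeR). The vitamin E main effect was 0.37 ± 0.12 (q = 0.999, edgeR) and the interaction -0.65 ± 0.25 (q = 0.203, edgeR). G141 (22.8 CPM) and G041 (25.3) were the lowest of all 24 libraries. Without G041, G047 and G141 the mean of GPX8 was 40.4 ± 8.26 CPM in C (n = 4) and 41.8 ± 9.14 in VEHT (n = 5). With all 6 piglets these means were 36.4 ± 9.13 and 38.6 ± 11.3, and that of VE was 58.2 ± 17.2.

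GPX7 was at 25.6 to 90.5 CPM in VE (median 58.9) and at 16.03 to 48.0 in C (43.5), with 21.6 to 67.5 in HT (30.6) and 26.3 to 49.4 in VEHT (37.2). Its lowest VE piglet was again G179, and the ranges overlapped. Like GPX1, GPX7 was lowest in each diet in the piglet with the highest muscle sum (G025, G179, G121 and G164). G012 of HT and G208 of VEHT, with muscle sums of 23570 and 33604 CPM, were at 64.3 and 48.3 CPM of GPX7. The part of muscle was not tested. The log2 fold change in C vs VE was -0.71 ± 0.30 (q = 0.373, edgeR). Without G041 and G047 the mean of GPX7 in C was 38.3 ± 15.1 CPM (n = 4), against 37.9 ± 12.8 with all 6. The sum of the 6 stromal markers, with which both genes rank, was also highest in VE by median. It was at 32585 CPM (12197 to 46693) in VE against 16279 (3716 to 23098) in C. In HT the median was 9589 (7187 to 37842) and in VEHT 16554 (10211 to 26206). The 6 did not all go the same way. Taken singly in C vs VE, 3 were lower in C and 1 was higher in C at an unadjusted p under 0.05 (edgeR). The part of these markers in the differences of GPX7 and GPX8 was not tested. GPX8 lies within the span of the gene CDC20B on the opposite strand. Whether their exons overlap was not examined, and the strand setting of the counting was not given in the sources used here. Whether reads of CDC20B enter the counts of GPX8 is thus not known.

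GPX4 was highest in VE, at 320 to 508 CPM (median 391), with 197 to 394 in C (219), 226 to 383 (294) in VEHT and 202 to 489 (342) in HT. The C piglets G025, G041, G047 and G117 were at 231 CPM or less, below every VE piglet, and the other 2 lay among those of VE. Its log2 fold change was -0.59 ± 0.21 in C vs VE (q = 0.313, edgeR) and 0.37 ± 0.14 in VE vs VEHT (q = 0.482, edgeR), and the interaction was -0.78 ± 0.28 (q = 0.173, edgeR). Without G041, G047 and G141 these were -0.46 ± 0.22, 0.34 ± 0.14 and -0.62 ± 0.30, and of them the VE vs VEHT difference alone had an unadjusted p under 0.05. The adipocyte markers, with which GPX4 ranks, summed to a median of 17548 CPM in VE (14115 to 28009), 10567 in C (2629 to 23887), 13554 (2284 to 20230) in VEHT and 17236 (5982 to 22114) in HT, and their part was not tested.

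GPX3, CAT, SOD1 and SOD3 had no comparison with an unadjusted p under 0.05. GPX3 was at 4044 ± 1085 CPM in VE, 4082 ± 2215 in HT, 3037 ± 1644 in VEHT and 2692 ± 1907 in C (SD, n = 6 each). CAT, the haem enzyme of peroxisomes, was at 846 ± 172.6 CPM in VE, 849 ± 250 in HT, 658 ± 269 in VEHT and 678 ± 409 in C. VE and HT were almost level for both genes, and C and VEHT hold the 3 animals with the lowest values. SOD1 was at 219 ± 51.8 CPM in VE, 240 ± 89.1 in HT, 179.3 ± 49.0 in VEHT and 175 ± 67.6 in C. None of these orders was beyond the spread of the piglets. The smallest p of each gene but SOD3 was that of the interaction, with -1.03 ± 0.69 for GPX3 (q = 0.516, edgeR), -0.68 ± 0.48 for CAT (q = 0.534, edgeR) and -0.72 ± 0.36 for SOD1 (q = 0.355, edgeR).

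SOD3 was at 134 ± 87.1 CPM in HT and at 83.0 ± 12.5 in VE, 85.2 ± 32.9 in VEHT and 91.4 ± 22.0 in C. G008 (268 CPM) and G189 (205) of HT were above every piglet of the other diets, and G121 of HT (49.1) was the lowest of all 24. G121 had the highest sum of skeletal muscle markers of its diet, 32535 CPM against a median of 867 over the 24 libraries, and their part in the level of SOD3 was not tested. Its smallest p was in VE vs HT, with a log2 fold change of -0.65 ± 0.37 (q = 0.575, edgeR), and -0.30 without G008. On Sscrofa11.1 the end of SOD1 overlaps SCAF4 on the opposite strand, whose own level was 24.4 to 48.1 CPM.

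Counted together, 4 of the 9 genes had an unadjusted p under 0.05 in C vs VE (12.1% of all genes did), 2 did in C vs HT (12.6%) and 0 in C vs VEHT (2.1%). There were 2 for VE vs VEHT (9.04%), 3 for VE vs HT (9.52%) and 1 for HT vs VEHT (7.89%). In the factorial model it was 1 for vitamin E (3.93%), 1 for hydroxytyrosol (6.22%) and 3 for the interaction (14.8%). The median log2 fold change of the 9 was -0.37 in C vs VE (0.03 over all genes), -0.34 for C vs HT (0.03) and -0.68 for the interaction (0.02). Comparisons that share a diet share its piglets, so these counts are not separate evidence.

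DESeq2, the test of the study, made calls where edgeR made none. It called GPX8 as lower in C than in VE (1 of 9, against 5.01% of all genes; log2 fold change -0.68, q = 0.0270), and SOD2 (1.15, q = 0.0398) and GPX1 (1.57, q = 0.0491) as higher in C than in HT (2 of 9, against 4.24%). For the interaction it called GPX1 (2.50, q = 0.0289) and GPX4 (-0.78, q = 0.0880), 2 of 9 against 7.13%. It called 0 of the 9 in the other 4 pairs and in both main effects. Of all genes it called 0.00568% in C vs VEHT, 1.46% for VE vs VEHT, 0.598% for VE vs HT, 0.681% for HT vs VEHT, 0.0511% for vitamin E and 0.0284% for hydroxytyrosol. In C vs VE, C vs HT and the interaction, DESeq2 called more genes here than the study reported. The study itself reported GPX1 as higher in C than in HT by sequencing, within its q threshold. Its quantitative PCR of the same animals gave a difference in the same direction, which did not reach its p threshold.

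Genes that make superoxide and peroxide, or that serve the same reactions, were described beside the 9. Of the sources, 7 of 10 tested were called for the interaction, all positive (edgeR, 3.95% of all genes), among them the NADPH oxidase subunits CYBA and NCF1, the dual oxidase DUOX2 and the xanthine dehydrogenase XDH. NCF1, which carries the oxidase to the membrane of phagocytes, was at 168 to 247 CPM in G041, G047 and G141 and at 1.00 to 22.2 in the other 21, and XDH at 88.7 to 106 and 0 to 5.36. The count was 0 without these 3 animals and 0 with limma voom. With 1 library left out it was 0 without G141, 1 without G041, 2 without G047 and 2 to 7 without any other. Markers of macrophages, neutrophils, T cells and plasma cells were all high in the 3 animals, and the part of each was not tested.

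No gene of the other 6 lists was called by edgeR in any comparison. In C vs HT, 4 of 16 other enzymes of peroxide removal had an unadjusted p under 0.05, all higher in C (10% of all genes were): GCLC, the rate-limiting enzyme of glutathione synthesis, had a log2 fold change of 1.08 ± 0.28 (q = 0.335, edgeR), GSR, which reduces glutathione, 1.21 ± 0.40, and the selenoprotein TXNRD1 0.73 ± 0.25. The copper importer SLC31A1 (1.34 ± 0.39) and the metal importer SLC11A2 (0.84 ± 0.27) did so among 8 genes of metal and haem supply. Among 7 genes that serve selenoprotein synthesis LRP8, a receptor of selenoprotein P, was at 2.58 ± 0.81 and SCLY, which frees selenium from selenocysteine, at 0.94 ± 0.42, both higher in C, and TRNAU1AP, a protein of the selenocysteine tRNA, at -0.63 ± 0.23 (2.52% of all genes were lower in C by this p). Of 12 other selenoproteins SELENOI (1.19 ± 0.33) and DIO1 (3.06 ± 1.21) had a p under 0.05. DIO1 had a mean of only 0.40 CPM over the 24 libraries, and LRP8 one of 2.67. DESeq2 called 2 of the 16 enzymes in C vs HT, GCLC (q = 0.0246) and GSR (q = 0.0911). It also called SLC31A1 (q = 0.044) among the 8, LRP8 (q = 0.0336) among the 7 and SELENOI (q = 0.0298) among the 12. All of these were higher in C, and DESeq2 called 4.24% of all genes there. C holds G041 and G047, and their part in these differences was not tested.

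Among 8 genes of thiol oxidation in the endoplasmic reticulum, the partners of GPX7 and GPX8, the disulfide isomerases PDIA3 (1.03 ± 0.40) and PDIA4 (0.96 ± 0.40) and the chaperone HSPA5 (1.06 ± 0.41) had a p under 0.05 in C vs HT, where 10% of all genes had one and were higher in C. G041 and G047 of C had plasma cell marker sums of 1223 and 802 CPM, and their part in these differences was not tested. None of 14 peroxisome genes did in C vs HT, and 3 were lower in C than in VE, PEX3 (-0.64 ± 0.25), PEX26 (-0.27 ± 0.11) and ABCD3 (-0.44 ± 0.20), as were 3.34% of all genes by the same p. The peroxisome is the organelle that holds CAT. For the interaction DESeq2 called PRDX1, a peroxiredoxin (q = 0.0744), GSR (q = 0.0851) and TXNRD2 of mitochondria (q = 0.0969), 3 of 16, against 7.13% of all genes. It also called 1 of 7 genes of selenoprotein supply and 1 of 8 of metal and haem supply. Of the 12 other selenoproteins, the 14 peroxisome genes and the 8 genes of thiol oxidation it called 0.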

How the data were processed

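The authors deposited raw counts per Ensembl gene, after adapter and tail trimming (TrimGalore), alignment to the pig genome Sscrofa11.1 (HISAT) and gene-level counting (HTSeq-count). The submitters' notes name HISAT2, and versions and strand setting were not given in the sources used here. Library columns name the animal and the diet. Counter summary entries were left out of library sizes (8.31% to 16.5% of reads per library had no feature). CPM divides a count by its library's total of gene counts. A gene stayed in a comparison where fewer than 75% of its libraries had 0 counts. Tests used edgeR 4.0.16 with TMM factors, each pair on its 12 libraries and the factorial model on all 24, with DESeq2 1.42.0 and limma 3.58.1 as alternatives, in R 4.3.3 and Python 3.11.15, and the fits were tested on simulated data. SE is the fold change divided by the root of F. Of 25880 identifiers, 14857 were named by the reference table and 43 by the study. Genes named were the 9 members, in the comparisons with their smallest p, genes of the lists that were called or had the 3 smallest p values, and for each member the 3 genes most alike; a gene beyond these was chosen after its values were seen. A few genes that this rule names are not reported here. The members and lists were chosen with earlier results of these data known.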

Additional observations from a re-analysis of the deposited data

Results flagged for a closer look

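SOD3 in the C diet had 1 library far below the rest. G025 was at 51.8 CPM, and the nearest of the other 5 at 86.8 CPM, a gap of 0.626 of the range on the log2 scale against a critical value of 0.625. G025 also had the highest sum of skeletal muscle markers in C, 20728 CPM against 7.74 to 12915 in the other 5. G121 of HT and G164 of VEHT, where SOD3 was lowest in those diets (49.1 and 49.3 CPM), had the highest muscle sums of theirs, 32535 and 34632 CPM. In VE this did not hold, since G179 had the highest muscle sum (18174 CPM) and the highest SOD3 (101 CPM). The part of muscle was not tested. SOD3 in C was the 1 such case among 36 groups of 6 libraries, and chance gives about 1 in 20.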

How the results depend on the processing

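The count of members called was 0 in every comparison under RLE size factors, no filter, filterByExpr, limma voom and, for pairs, 1 fit of all 24 libraries. With DESeq2 it was 1 for C vs VE, 2 for C vs HT and 2 for the interaction. With 1 library left out, the count was 0 to 2 for the interaction (GPX1 in 6 of 24 fits, GPX4 in 2) and 0 elsewhere. After the data were seen, other fits were added: those without G041, G047 and G141 called 0, and that with the newer dispersion estimate of edgeR called 1, GPX1 for the interaction (q = 0.0821). Of the 21 fold changes and effects the text gives for a member's test, none turned its sign under any setting. Without G041 the GPX1 difference in C vs VE was 0.45, without G141 its HT vs VEHT difference was -0.40 and its interaction 1.35. All 36 diet means of the members moved by less than their SD with TMM-scaled CPM. The interaction had 696 genes called over all genes, 1255 by DESeq2, 0 by limma voom, 0 without the 3 animals and 0 to 1095 with 1 library left out. No paired analysis was possible because the piglets of different diets came from different litters, and no label ties the replicate numbers to a shared litter, batch or day. At 6 piglets per diet the p values measure the spread between animals, not counting error, since each of the 9 genes had 708 counts or more in every library.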
